A study of Homo sapiens with 12 samples.

Results

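Smooth muscle cells contract through actin, myosin and a set of proteins that bind them, and 10 genes of this machinery were followed in cell lines of head and neck squamous carcinoma (HNSCC). They are the actins ACTA2 and ACTG2, the myosin light chains MYL9 and MYL7, the myosin light chain kinase MYLK, the tropomyosins TPM1 and TPM2, caldesmon (CALD1), calponin 1 (CNN1) and transgelin (TAGLN). The 10 genes were taken by name from the 33514 gene symbols of the count tables, and they had been picked with their change under cetuximab in these same data known. Their values under cetuximab are therefore a description and support nothing. The levels in untreated cells come from PBS samples that enter the same contrast, so the comparison of untreated lines is read as a description as well. All 10 genes were among the 17897 genes with enough counts to be tested.

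Single-cell RNA-seq (10x Genomics 3′ chemistry) had been performed on 3 established HNSCC lines, SCC1, SCC6 and SCC25, all grown in the same serum-containing medium. Each line was given the EGFR-blocking antibody cetuximab, at 100 nM on each of 5 days, or only saline (PBS) in the untreated controls, and the labels name no engineered allele or further agent. With 2 replicates per line and treatment there were 12 samples in 6 groups. Each line stands for 1 tumour only, and the sources leave unclear whether the 2 replicates of a group are separate cultures or 1 culture sequenced in duplicate, so that every SD, SE and p may cover technical spread alone.

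A sample held 961 to 2854 cells and 57057402 to 112170073 unique molecular identifiers (UMIs, 1 per captured RNA molecule), with 24078.5 to 54864 UMIs in the median cell, fewest in SCC6 cetuximab replicate 1. Replicates of a group shared 3 to 10 cell barcodes and other pairs of samples 1 to 13. The level of a gene is its UMIs summed over the cells of a sample, given as counts per 1000000 UMIs of that sample (CPM). Levels are compared between samples for 1 gene and not between genes. Of 10 squamous epithelial markers the summed level was 1683 to 14987 CPM, although KRT5 (0.967 to 4.57 CPM) and KRT14 (0.379 to 2.58 CPM) were nearly absent from SCC6. The 10 defining markers of smooth muscle summed to 11.1 to 33.0 CPM, led by the widely expressed SMTN in all samples but SCC25 cetuximab replicate 2, where SYNPO2 had 15.1 CPM. MYH11, the smooth muscle myosin heavy chain, DES, CASQ2, KCNMB1 and PLN were under 1 CPM in all 12 samples. The contractile genes were thus read in epithelial tumour cells with 5 of these 10 markers under 1 CPM throughout. In their highest sample the other markers reached 27.8 (SMTN), 15.1 (SYNPO2), 4.03 (RGS5), 3.50 (LMOD1) and 2.45 CPM (MYOCD).

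In contracting cells, MYLK phosphorylates the regulatory light chain of myosin, such as MYL9, which lets the myosin motor pull on actin filaments. Tropomyosin lies along the filament, caldesmon and calponin restrain the motor, and transgelin cross-links filaments. ACTA2 and ACTG2 are the smooth muscle actins, CNN1 is a marker of differentiated smooth muscle, and MYL7 is the regulatory light chain of the atrial heart muscle. Epithelial and tumour cells build stress fibres from non-muscle versions of the same parts, and TAGLN, MYL9, TPM1 and CALD1 are commonly found there. Many of these genes are controlled by serum response factor (SRF), which binds a sequence called the CArG box together with cofactors of the myocardin family.

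The promoters below are shown because the CArG box is the sequence by which smooth muscle genes are classically recognised. In the RefSeq table of promoter windows (GRCh38.p14, 250 bases before to 50 bases after a gene start), 8 of the 10 genes had an entry, with 13 windows among them. TAGLN and MYL9 had none. A CArG box on either strand was found in 3 of these 13 windows, 1 each of ACTG2, MYLK and MYL7, whereas 1.16% of all 35116 windows hold one. Each stretch is the 150 bases before the start, read in the direction of the gene, with the box in capitals. They lie at chr2:73892858-73893007 (plus strand) for ACTG2, chr3:123620549-123620698 (minus strand) for MYLK and chr7:44141333-44141482 (minus strand) for MYL7.
ACTG2: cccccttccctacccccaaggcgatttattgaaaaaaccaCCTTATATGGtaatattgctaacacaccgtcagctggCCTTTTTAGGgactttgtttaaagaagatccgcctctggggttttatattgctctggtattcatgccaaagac
MYLK: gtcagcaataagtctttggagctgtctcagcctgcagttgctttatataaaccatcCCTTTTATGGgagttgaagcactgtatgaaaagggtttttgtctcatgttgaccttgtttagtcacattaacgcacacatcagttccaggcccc
MYL7: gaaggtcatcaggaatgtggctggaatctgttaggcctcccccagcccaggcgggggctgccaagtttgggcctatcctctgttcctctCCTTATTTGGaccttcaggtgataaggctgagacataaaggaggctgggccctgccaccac
The boxes began 110 and 73 bases before the start of ACTG2, 94 bases before the start in the MYLK window shown and 61 bases before that of MYL7. Which start of MYLK was in use in these cells was not tested. A box with 1 base off is common, since 15.9% of all windows hold one. Among the 13 windows here 5 did (of ACTA2, ACTG2, CALD1 and MYL7), and only that of ACTA2 is printed for it. The ACTA2 window had such boxes at 121 and 71 bases before its start, shown in capitals at chr10:88952774-88952923 (minus strand).
ACTA2: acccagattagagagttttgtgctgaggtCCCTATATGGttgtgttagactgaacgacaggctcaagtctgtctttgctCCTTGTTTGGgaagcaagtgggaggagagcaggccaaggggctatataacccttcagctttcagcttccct
The letters TATAAA stood in 3 of the 13 windows (ACTG2, CALD1 and MYLK), on either strand, against 10.7% of all windows, and CATTCC in 4 of 13 (ACTA2, CALD1 and MYL7) against 11.9%. In MYLK the TATAAA matches overlapped each other and none overlapped a CArG box. A match is a description of these letters and not evidence that a factor binds there.

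The levels in untreated cells are given first. Their PBS samples also enter the cetuximab comparisons, and the genes were chosen with earlier results of these data known. The lines differed most in MYLK, TPM2 and ACTG2. MYLK stood at 1.36 and 1.18 CPM in SCC1, 12.4 and 12.6 CPM in SCC6, and 89.4 and 56.2 CPM in SCC25, with no overlap between lines. On the log2 scale MYLK was higher by 3.64 ± 0.43 (SE, n = 2 against 2) in SCC6 than in SCC1 and by 2.38 ± 0.39 in SCC25 than in SCC6 (edgeR FDR 0.000104 and 0.00100). The UMIs counted for MYLK thus spanned 65.2-fold from SCC1 to SCC25 (edgeR FDR 1.1e-05). Counts per gene do not tell which transcripts of MYLK they come from.

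TPM2 followed another order. It was present at 307 and 377 CPM in SCC1 and at 294 and 305 CPM in SCC25, but at 4.29 and 4.0 CPM in SCC6. SCC6 was lower than SCC1 by 6.04 ± 0.30 on the log2 scale (edgeR FDR 7.7e-07), with means of 4.15 ± 0.210 and 342 ± 49.4 CPM (SD, n = 2). SCC1 and SCC25 were not told apart (FDR 0.993). The other tropomyosin, TPM1, was lowest in SCC6 as well, at 166 and 255 CPM, against 751 and 557 CPM in SCC1 and 447 and 403 CPM in SCC25. TPM1 was lower in SCC6 than in SCC1 by 1.30 ± 0.22 on the log2 scale, with FDR 0.00124, and higher in SCC25 than in SCC6 by 0.88 ± 0.22 (edgeR FDR 0.0101). The latter missed the threshold without SCC6 PBS replicate 1 (log2 0.64, edgeR FDR 0.0801).

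The smooth muscle actins differed from each other in their order. ACTG2 had 0.736 and 0.348 CPM in SCC1, 3.10 and 3.64 CPM in SCC6, and 8.66 and 10.7 CPM in SCC25. Each line exceeded the one before it, by 3.01 ± 0.43 from SCC1 to SCC6 and by 1.39 ± 0.38 from SCC6 to SCC25 on the log2 scale (edgeR FDR 0.000357 and 0.0144). The second of these steps was lost when either SCC6 PBS replicate (FDR 0.0825 and 0.0556) or SCC25 PBS replicate 2 (FDR 0.0739) was left out of the edgeR fit. ACTA2 had its highest untreated level in SCC1, at 6.01 and 7.55 CPM, against 1.2 and 2.60 CPM in SCC6 and 2.57 and 3.57 CPM in SCC25. SCC6 was lower than SCC1 in ACTA2 by 1.53 ± 0.51 on the log2 scale (edgeR FDR 0.0368), a call lost in 8 alternative fits (log2 -1.75 to -1.11, edgeR FDR 0.0502 to 0.210), among them those without SCC1 PBS replicate 1 or 2 and without SCC6 PBS replicate 1, and SCC25 stood between them without a call against either. Counting of reads shared by ACTA2 and ACTG2, which are near-identical in coding sequence, is not given in the sources used here, so that the split between these 2 genes is uncertain.

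MYL9, the light chain of smooth muscle and non-muscle myosin, was highest in SCC25. It had 284 and 372 CPM there, 111 and 113 CPM in SCC1 and 70.6 and 78.7 CPM in SCC6. SCC25 was higher by 1.75 ± 0.31 than SCC1 and by 2.00 ± 0.32 than SCC6 on the log2 scale (edgeR FDR 0.00155 and 0.000748), while SCC1 and SCC6 were not told apart (FDR 0.548). MYL7 was rare in all untreated samples, at 0.751 to 3.83 CPM. The edgeR fit called MYL7 higher in SCC6 than in SCC1 (log2 1.78 ± 0.58, FDR 0.0316), but the samples overlap and this rests on SCC6 PBS replicate 2, without which the log2 difference was 0.51 with FDR 0.460. The call was also lost without SCC1 PBS replicate 1 or replicate 2, with edgeR FDR 0.103 and 0.145.

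Among the filament binding proteins, TAGLN had 404 and 234 CPM in SCC1, 165 and 177 CPM in SCC6, and 119 and 92.0 CPM in SCC25. Its order was thus the reverse of that of MYLK. TAGLN was lower in SCC25 than in SCC1 by 1.40 ± 0.33 on the log2 scale (edgeR FDR 0.00772), and the steps between neighbours in that order did not pass (FDR 0.212 and 0.0641). With the replicate number as a block, both steps passed (edgeR FDR 0.0456 and 0.00502). Without SCC1 PBS replicate 1 or SCC25 PBS replicate 2 the SCC25 to SCC1 difference in TAGLN had edgeR FDR 0.0675 and 0.0504.

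CALD1 had 401 and 244 CPM in SCC1, 293 and 148 CPM in SCC25 and 100.4 and 88.9 CPM in SCC6. CALD1 was lower in SCC6 than in SCC1 by 1.41 ± 0.32 on the log2 scale and higher in SCC25 than in SCC6 by 1.06 ± 0.32 (edgeR FDR 0.00602 and 0.0238). The first was lost without SCC1 PBS replicate 1 (FDR 0.0529) and the second without SCC25 PBS replicate 1 (log2 0.56, edgeR FDR 0.208) or either SCC6 PBS replicate (FDR 0.0636 and 0.119). CNN1 was close to absent, with 1 to 9 UMIs in a whole PBS sample, and no line differed from another in it.

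In numbers, SCC6 differed from SCC1 in 7 of the 10 genes, 3 higher and 4 lower, where 21.5% of all genes tested were called higher and 18.6% lower. SCC25 against SCC1 gave 3 higher and 1 lower, where 23.4% and 17.3% of all genes were called. Under the replicate block this became 3 higher and 4 lower (30.7% and 28.0% of all genes), with ACTA2, TPM1 and CALD1 added on the lower side. SCC25 against SCC6 gave 6 higher and 0 lower, where 22.2% and 18.7% of all genes were called. For the latter direction 1 gene was called lower under the block (TAGLN) and 0 by DESeq2, where 5153 and 3513 of all 17897 genes were. In all 7 of the 10 genes passed an unadjusted edgeR p of 0.05 in either direction, as did 8786 of all 17897. Of the 17 calls in the 3 line comparisons, 10 were kept under every alternative run: TPM1, TPM2, ACTG2 and MYLK in SCC6 against SCC1, MYL9, ACTG2 and MYLK in SCC25 against SCC1, and MYL9, TPM2 and MYLK in SCC25 against SCC6.

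**Figure D1:**
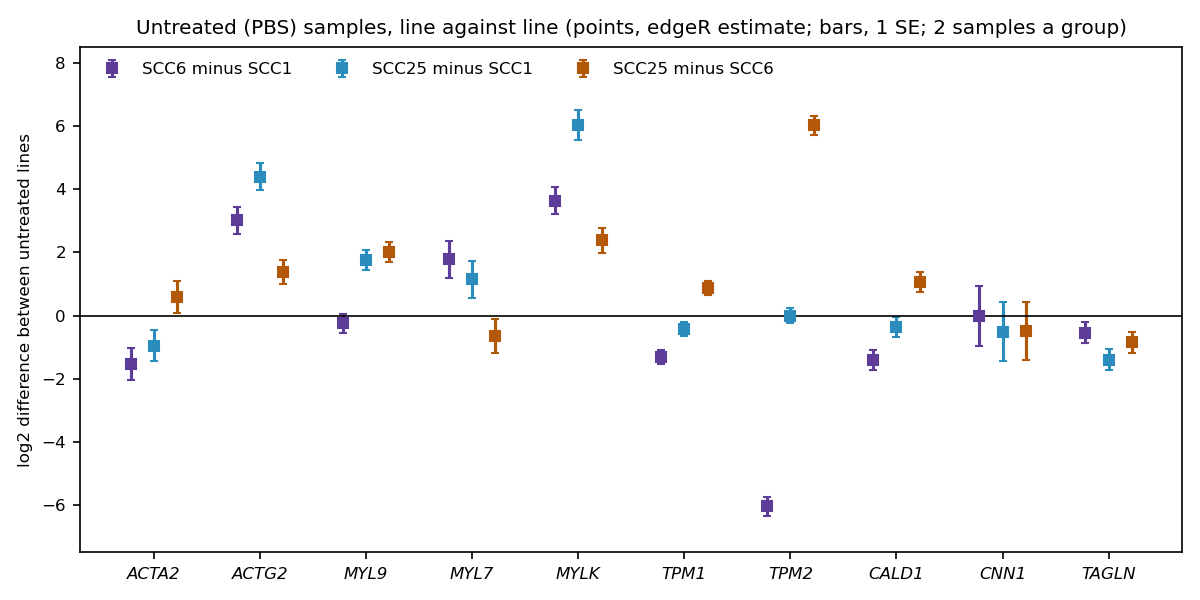
Differences between untreated lines for the 10 genes (x axis), as log2 differences (y axis; squares, edgeR estimate; bars, 1 SE; 2 PBS samples per line). TPM2 is at -6.04 for SCC6 minus SCC1 and at 6.03 for SCC25 minus SCC6, and MYLK is at 6.03 for SCC25 minus SCC1.

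Under cetuximab the genes were higher in most lines, which is the property they were picked for. For SCC1, SCC6 and SCC25 in turn, the median log2 fold change over the 10 genes was 1.09, 2.52 and 1.54, where that over all genes tested was 0.00, 0.00 and -0.01. Fold changes below are cetuximab against PBS on the log2 scale with their SE, from 2 samples against 2. They come from the fit without the replicate block, which leaves out the pairing of same-numbered samples.

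Of the light chains MYL7 and MYL9, MYL7 had the larger fold change in each line. MYL7 was at 0.937 and 3.83 CPM in untreated SCC6 and at 182 and 204 CPM after cetuximab, with a log2 fold change of 6.14 ± 0.66. In SCC1 it went from 0.976 and 0.751 CPM to 11.1 and 5.41 CPM (3.21 ± 0.60), and in SCC25 from 2.24 and 1.11 CPM to 8.01 and 11.1 CPM (2.50 ± 0.57). The treated SCC6 samples thus held far more of this atrial light chain than any other sample. MYL9 had 329 and 257 CPM in treated SCC1 (1.34 ± 0.31), 402 and 577 CPM in treated SCC6 (2.49 ± 0.32) and 807 and 1467 CPM in treated SCC25 (1.76 ± 0.31). In each line both treated samples lay above both PBS samples in MYL7 and in MYL9.

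MYLK kept the order of the untreated lines. It had 2.09 and 1.88 CPM in treated SCC1 (0.60 ± 0.40), 34.2 and 46.1 CPM in treated SCC6 (1.45 ± 0.38) and 125 and 321 CPM in treated SCC25 (1.60 ± 0.38). The treated SCC25 replicates differed from each other by more than the replicates of the other groups did.

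The actins did not go together in SCC1. ACTG2 had 5.03 and 2.69 CPM in treated SCC1 (2.81 ± 0.42), 55 and 55.9 CPM in treated SCC6 (3.81 ± 0.41) and 19.7 and 35.5 CPM in treated SCC25 (1.48 ± 0.38). ACTA2 in treated SCC1 was at 5.19 and 4.66 CPM, under both PBS samples (-0.52 ± 0.50). In SCC6 it was at 11.7 and 10.8 CPM (2.36 ± 0.53) and in SCC25 at 8.05 and 26.7 CPM (2.46 ± 0.52), above both PBS samples of the line. ACTA2 was the gene of the 10 whose treated samples lay below the untreated ones in 1 line and above them in the other two.

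The tropomyosins differed as well. TPM1 had 1351 and 1041 CPM in treated SCC1 (0.83 ± 0.22), 1549 and 1779 CPM in treated SCC6 (2.76 ± 0.24) and 1201 and 1030.5 CPM in treated SCC25 (1.36 ± 0.23). SCC6, with the lowest untreated level of TPM1, had the highest treated one. TPM2 in SCC6 was at 8.42 and 5.89 CPM after cetuximab (0.55 ± 0.24), still far under its level in the other lines. Its SCC1 samples overlapped, at 329 and 362 CPM after cetuximab (-0.04 ± 0.24), and SCC25 had 466 and 613 CPM (0.82 ± 0.24).

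TAGLN had 1392 and 730.3 CPM in treated SCC1 (1.70 ± 0.34), 967 and 1372 CPM in treated SCC6 (2.55 ± 0.35) and 567 and 774 CPM in treated SCC25 (2.65 ± 0.35). The treated means of TAGLN in SCC1, SCC6 and SCC25 were 1061 ± 468, 1169 ± 286 and 670.5 ± 146 CPM (SD, n = 2), against 319 ± 120.2, 171 ± 8.81 and 105 ± 18.8 CPM untreated. CALD1 was at 714 and 479 CPM in treated SCC1 (0.85 ± 0.32), 621 and 523 CPM in treated SCC6 (2.36 ± 0.33) and 630.0 and 483 CPM in treated SCC25 (1.32 ± 0.32). CNN1 reached 90 and 124 UMIs in the treated SCC6 samples against 3 and 8 UMIs in the untreated ones (4.32 ± 0.75). It had 34 and 22 UMIs in treated SCC1 against 9 and 1, and 7 and 13 UMIs in treated SCC25 against 4 and 4, so that even its highest level was 1.38 CPM.

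**Figure D2:**
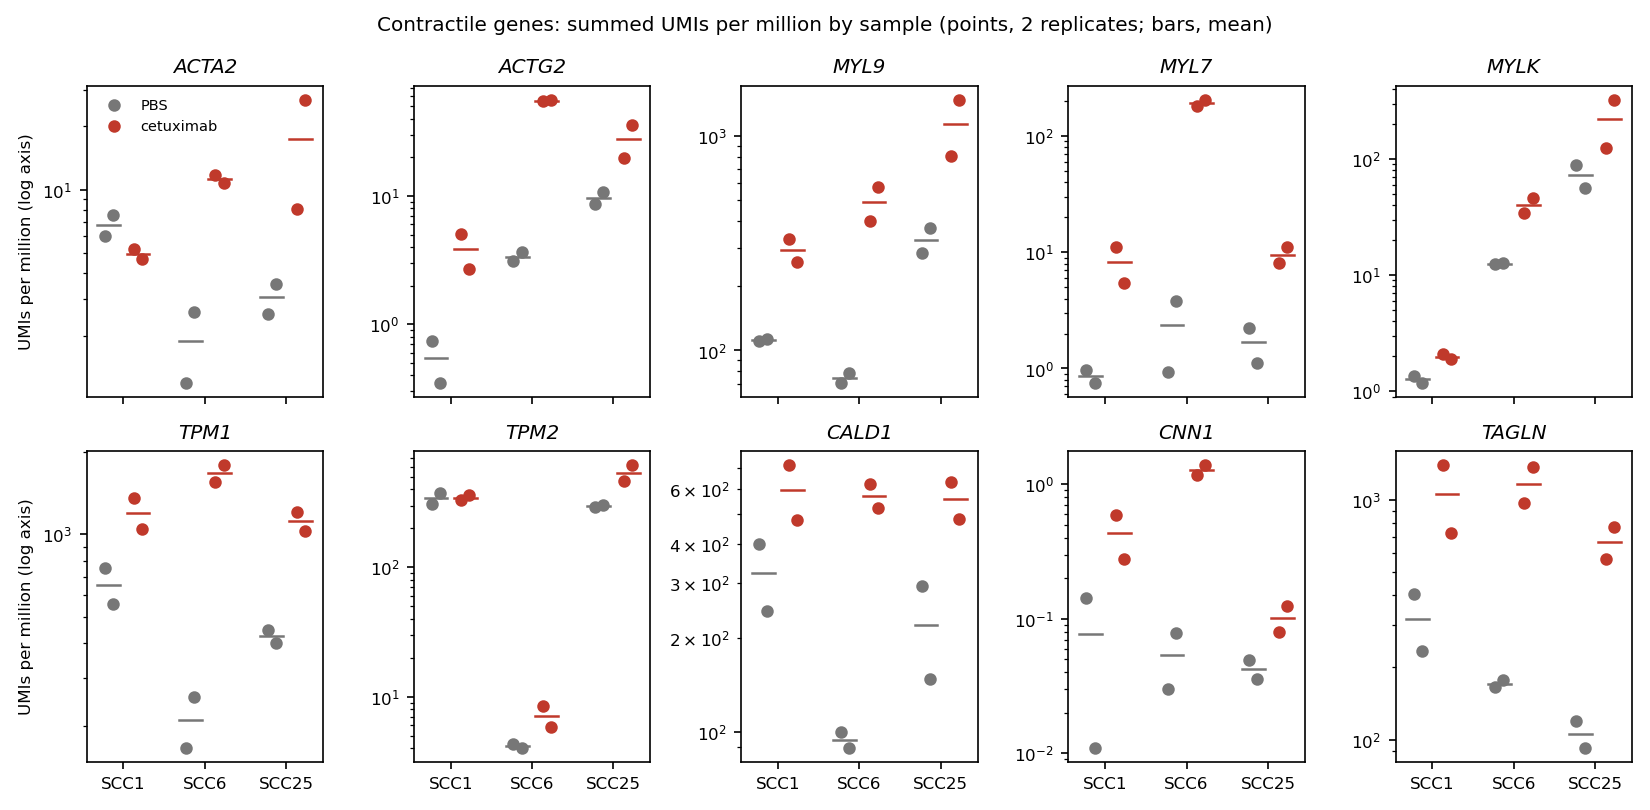
Level of each contractile gene (y axis, CPM, log axis with its own range per panel) in the 3 lines (x axis); grey points are the 2 PBS and red points the 2 cetuximab samples, and bars are their mean. In SCC6 MYL7 goes from 0.937 and 3.83 CPM to 182 and 204 CPM, whereas ACTA2 in SCC1 is lower after cetuximab, at 5.19 and 4.66 CPM against 6.01 and 7.55 CPM.

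The number of the 10 genes called under cetuximab is given beside the share of all genes called, and nothing is read from it, since the genes were picked on this contrast. In SCC6, 8 of 10 were called higher and 0 lower by edgeR, where 2.51% and 1.30% of all genes were. Fewer of the 10 genes, and fewer of all genes, were called without SCC6 PBS replicate 1 or without SCC6 cetuximab replicate 1. Such a fit leaves a lone sample in its group. Without SCC6 PBS replicate 1 the log2 fold changes of TAGLN, MYL9, CALD1 and ACTG2 were 2.54, 2.45, 2.50 and 3.74. Those of CNN1 and ACTA2 were 3.83 and 1.93. Across the 3 lines 8 were higher and 0 lower, where 2.53% and 1.13% of all genes were called. In SCC1, edgeR called 0 of 10, where 0.0168% of all genes were called higher. There 7 of the 10 and 1570 of all 17897 genes had an unadjusted edgeR p under 0.05. DESeq2 called 5 there (202 of 15468 genes higher), and the replicate block 7 (2.46% of all genes higher). In SCC25, edgeR called 0 of 10, where 0% of all genes were called in either direction. There 9 of the 10 and 1041 of all 17897 genes had an unadjusted edgeR p under 0.05. DESeq2 called 8 in SCC25 (83 of 15815 genes higher), and the replicate block 8 (0.771% of all genes higher). A difference of the cetuximab effect between lines was called by edgeR for 0 of 10 and for 0% of all genes. For it 5 of the 10 and 1318 of all 17897 genes had an unadjusted p under 0.05. Under the block 5 of 10 were called (1.29% of all genes), and by DESeq2 4 (276 of 16509 genes).

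**Figure D3:**
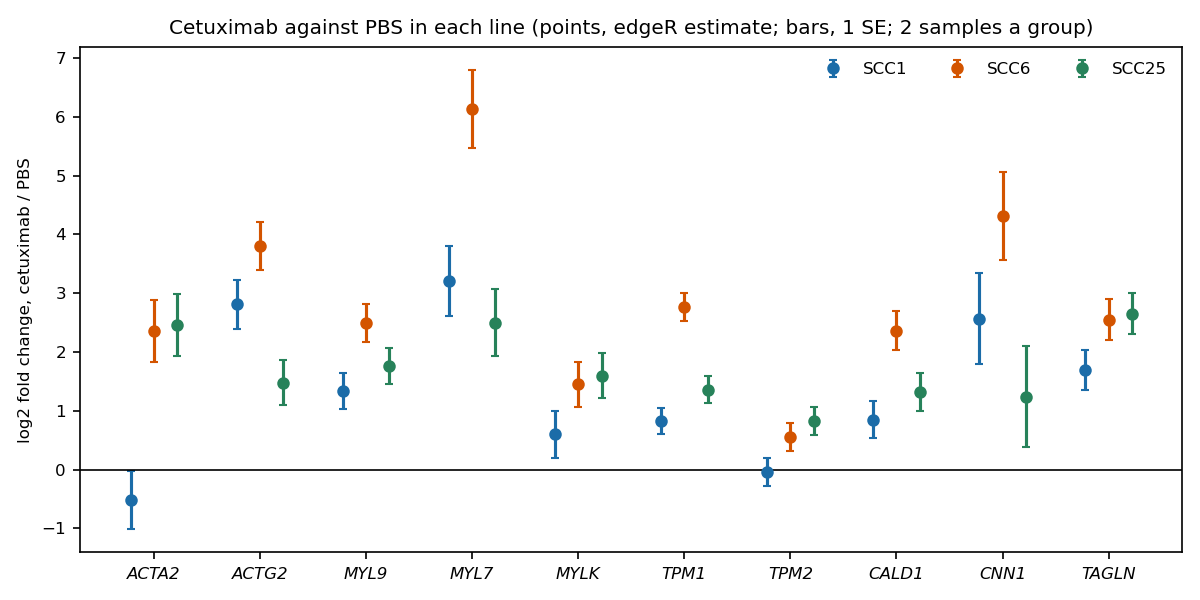
Cetuximab against PBS for each gene (x axis) and line (colours), as log2 fold change (y axis; points, edgeR estimate; bars, 1 SE; 2 samples per group). SCC6 has the highest point for MYL7 (6.14), CNN1 (4.32), ACTG2 (3.81) and TPM1 (2.76), and ACTA2 in SCC1 lies under 0 (-0.52).

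Levels summed over a sample do not tell how many cells carry a gene. To compare cells of unequal depth, each cell was thinned at random to 15000 UMIs, which kept 23063 of 23914 cells and left out 0.847 to 9.18% of the cells of a sample, most in SCC6 cetuximab replicate 1. A cell with 1 UMI or more of a gene is called positive. The exact (Clopper-Pearson) 95% interval of these shares spanned at most 5.53 percentage points and covers counting error only. As a background, PTPRC, CD3E, HBB and ALB, which epithelial cells should lack, were each positive in at most 0.137% of the thinned cells of a sample.

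TPM1 was found in most cells of each sample. It was positive in 85.6 and 90.9% of untreated SCC6 cells and in 96.6 to 98.9% of the untreated cells of the other lines, and in 99.3 to 100.0% of treated cells. CALD1 had its lowest shares in untreated SCC6, at 68.7 and 63.3%, against 96.8 and 96.9% after cetuximab. In SCC25 it was in 91.3 and 70.1% of untreated and 97.6 and 90.8% of treated cells. TAGLN was positive in 81.5 and 73.0% of untreated and 94.0 and 90.0% of treated SCC1 cells. In SCC6 the TAGLN shares were 72.4 and 71.1% against 98.6 and 98.8%, and in SCC25 45.0 and 36.9% against 77.2 and 81.5%. Without thinning TAGLN was positive in 85.5 and 87.4% against 99.1 and 99.8% of SCC6 cells, and in 60.4 and 54.7% against 90.2 and 92.6% of SCC25 cells. For these genes positive cells also held more UMIs, as with TAGLN in SCC6, at 3.49 and 3.90 UMIs per positive thinned cell in PBS and 14.2 and 20.7 UMIs after cetuximab.

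Of the 10 genes MYL7 had the largest shift in the share of cells. In SCC6 it was positive in 1.36 and 3.78% of untreated and 64.4 and 63.9% of treated cells, while treated SCC1 (8.64 and 5.72%) and treated SCC25 (6.35 and 9.58%) stayed low. Without thinning the MYL7 shares were 2.49 and 7.24% in untreated and 71.6 and 82.0% in treated SCC6, and at most 19.9% in the other lines. ACTG2 in SCC6 went from 3.28 and 3.78% to 28.2 and 24.8% of cells, and unthinned from 5.93 and 6.80% to 33.6 and 39.7%. MYLK was positive in 1.23 to 2.67% of SCC1 cells in all 4 samples. In SCC25 its untreated shares (52.6 and 34.3%) and treated shares (46.7 and 61.9%) overlapped, though the summed levels did not. TPM2 was positive in 92.8 to 98.0% of SCC1 and SCC25 cells and in 6.20 to 11.7% of SCC6 cells. MYL9 was positive in 49.4 and 50.8% of untreated and 92.2 and 93.7% of treated SCC6 cells, where the unthinned shares were 66.7 and 70.5% against 94.1 and 98.0%. No sample had CNN1 in more than 1.58% of its thinned or 5.14% of its unthinned cells.

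**Figure D4:**
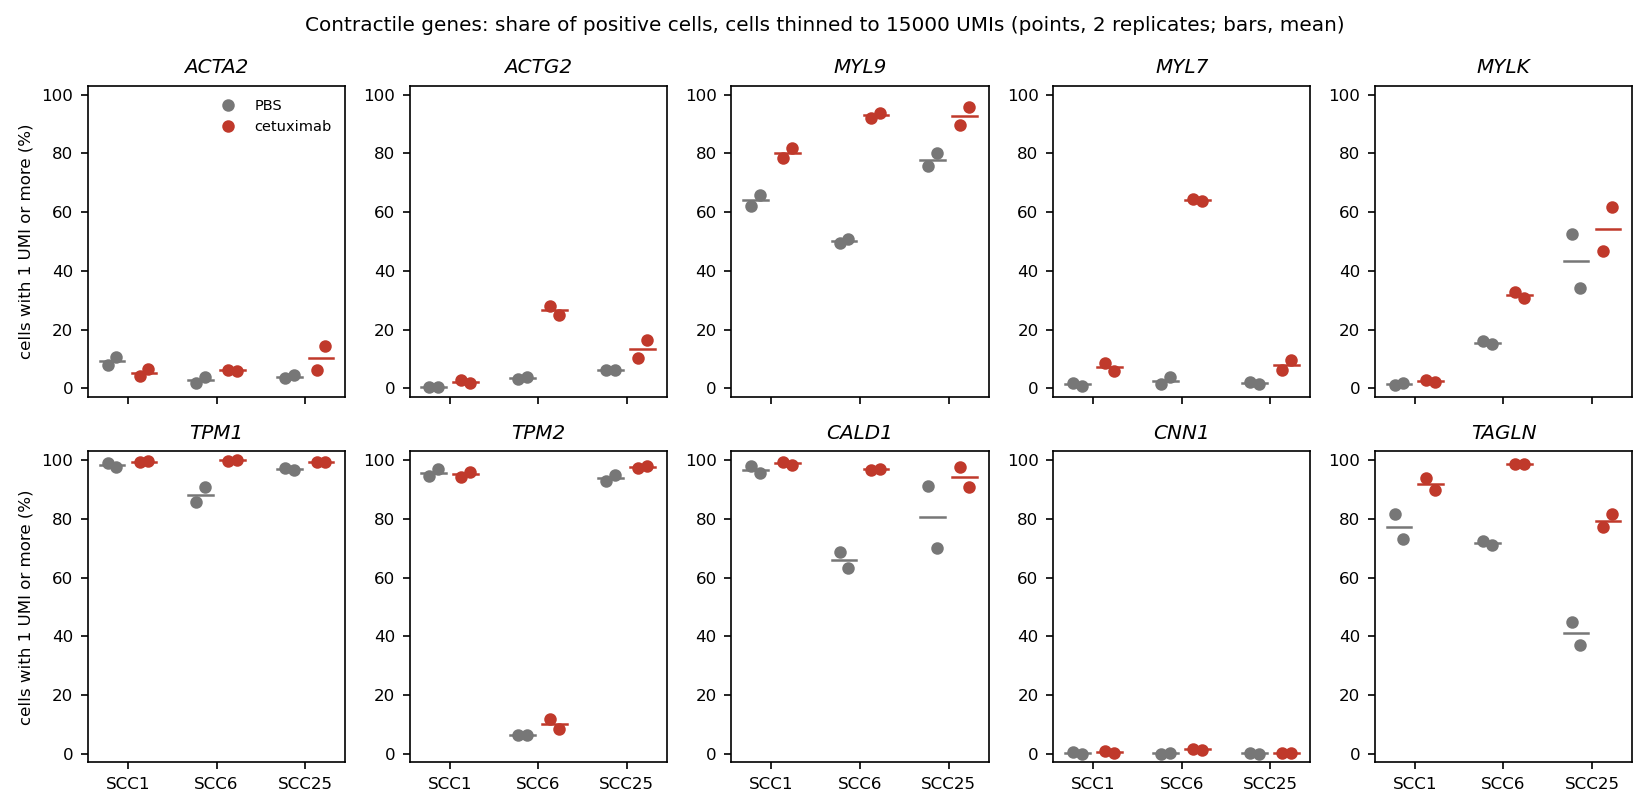
Share of cells with 1 UMI or more of each gene (y axis, percent, 0 to 100 in all panels) after thinning to 15000 UMIs per cell, by line (x axis); grey points are the 2 PBS and red points the 2 cetuximab samples, and bars are their mean. MYL7 stands at 64.4 and 63.9% in treated SCC6 and under 10% in all other samples, whereas TPM1 is at 85.6% or above everywhere.

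Within a sample, the UMIs of some genes sat in few cells. Taking all cells unthinned, the 1% of cells with most TPM1 held 4.56 to 8.10% of its UMIs in each of the 12 samples. For ACTA2 the 1% of cells with most ACTA2 held 60.7 and 66.9% of its UMIs in treated SCC6, against 30.8 and 19.5% in untreated SCC6. In treated SCC1 this share of ACTA2 was 46.6% in replicate 1 and 13.1% in replicate 2, and in treated SCC25 48.0 and 38.4%. Positive cells for ACTA2 were few throughout, between 1.70 and 14.4% of thinned cells, and a single cell of SCC6 cetuximab replicate 2 had 131 UMIs of it. MYL7 in treated SCC6 was spread more evenly, with 12.5 and 12% of its UMIs in the top 1% of cells. Cells with 5 or more MYL7 UMIs were 807 (28.3%) and 780 (47.2%) in treated SCC6, against 1 and 12 cells in untreated SCC6, and they held 81.5 and 93.3% of the MYL7 UMIs of those treated samples.

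Whether the genes were found in the same cells was examined next. The mean number of the 10 genes positive per thinned cell was 3.05 and 3.09 in untreated and 5.33 and 5.25 in treated SCC6. It was 4.47 and 4.43 against 4.84 and 4.82 in SCC1, and 4.66 and 4.25 against 5.31 and 5.68 in SCC25. Cells positive for 7 or more of the 10 made up 0.0377 and 0.123% of untreated and 14.7 and 12.6% of treated SCC6 cells, and 4.89 and 4.12% against 12 and 22.9% in SCC25. Without thinning these shares were 1.35 and 2.25% against 25.5 and 40.8% in SCC6, and 13.2 and 12.3% against 26.3 and 45.1% in SCC25. The SD of that number among cells was larger than independent genes of the same shares would give in all 12 samples, for example 1.15 against 0.974 in SCC6 cetuximab replicate 1.

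For each pair of genes, the observed share of double-positive cells was set against the share that independence of both genes would give, as a ratio, over pairs in which both genes reached 2% of cells in every sample of the line. The median ratio lay between 1.00 and 1.05 in all samples, and its mean difference, cetuximab minus PBS, was -0.0215. This ratio has to approach 1 when the separate shares approach 100%, so that it is bounded by the same change that picked the genes, and no test is given. MYL7 and ACTG2 are outside these pairs in SCC6 and SCC25, because MYL7 was under 2% in an untreated sample of each, and they are named after their values were seen. They were found together 3.39 and 2.59 times as often as under independence in untreated SCC6 and 1.26 and 1.26 times in treated SCC6, where 22.9 and 20% of cells had both. In SCC25 the ratio for MYL7 and ACTG2 was 4.99 and 3.38 untreated and 2.68 and 2.03 after cetuximab. These ratios in untreated cells rest on under 1% of cells.

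Levels per cell give a finer picture. The Pearson correlation of TAGLN with MYL9 over thinned cells, on log2(UMIs + 1), was 0.45 and 0.44 in untreated and 0.71 and 0.65 in treated SCC1. In SCC6 it was 0.42 and 0.42 against 0.60 and 0.59, and in SCC25 0.50 and 0.52 against 0.70 and 0.78. MYL9 ranked first among the genes correlated with TAGLN in 10 of 12 samples, out of the genes with a mean of 0.5 UMIs or more per thinned cell, and MYL6 and TPM1 were in the first 10 in all 12. TAGLN with MYL7 went from 0.14 and 0.26 in untreated to 0.53 and 0.57 in treated SCC6. MYLK was hardly correlated with TAGLN in SCC1 (0.00 to 0.04) and more so in SCC25, with 0.30 and 0.32 untreated and 0.48 and 0.62 treated. TPM2 was uncorrelated with TAGLN in SCC6 (-0.01 to 0.02), where it is close to absent, and reached 0.66 in SCC25 cetuximab replicate 2. Cells of 1 sample share a library, and higher counts alone allow higher correlations, so that these values are a description.

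**Figure D5:**
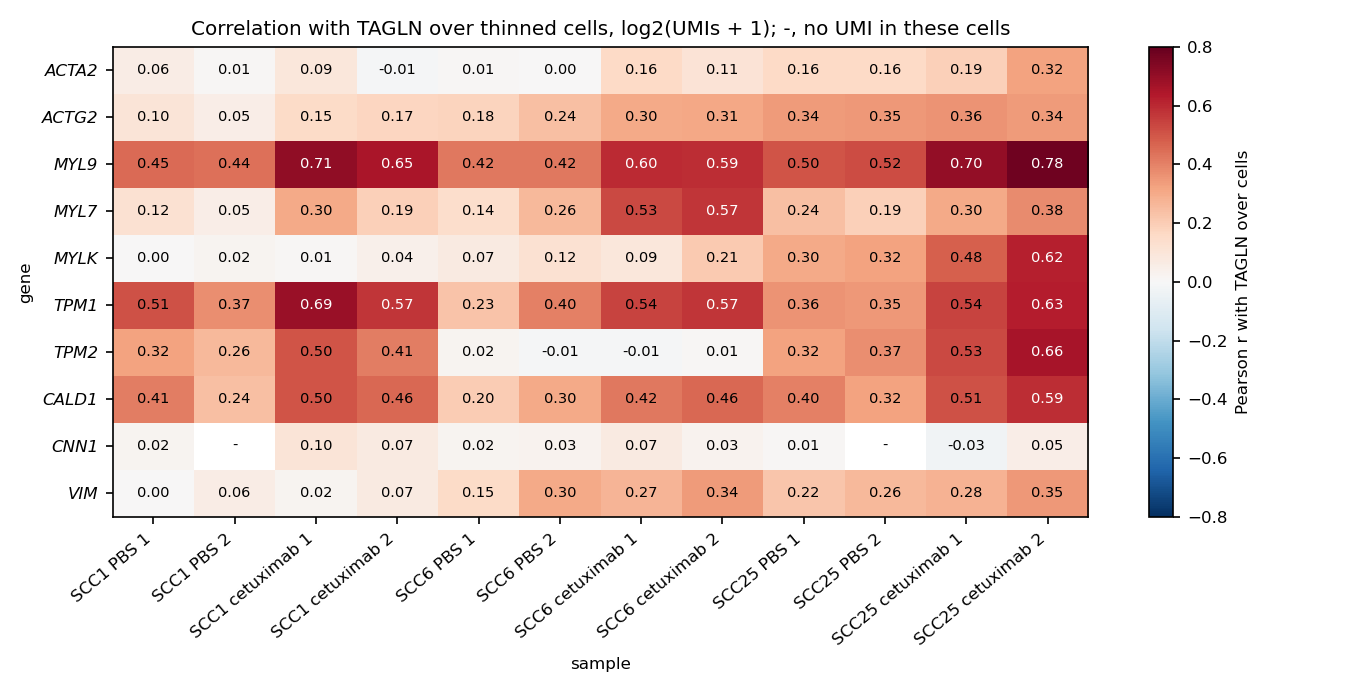
Pearson correlation with TAGLN over thinned cells (colour and printed value; log2 of UMIs plus 1) for the other genes and VIM (rows) in the 12 samples (columns); a dash marks a gene with no UMI in these cells. MYL9 runs from 0.42 in SCC6 PBS replicates to 0.78 in SCC25 cetuximab replicate 2, while CNN1 stays between -0.03 and 0.10.

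The vimentin gene VIM, an intermediate filament marker of mesenchymal cells, had a correlation with TAGLN over thinned cells of 0.15 to 0.34 in SCC6, 0.22 to 0.35 in SCC25 and 0.00 to 0.07 in SCC1, where at most 2.38% of thinned cells had it. In treated SCC6, VIM-positive cells had 14.3 and 21.1 TAGLN UMIs per thinned cell and VIM-negative ones 9.69 and 12.1, and MYL7 was positive in 66.5 and 66.7% against 39.4 and 30.8% of them. Cells with MKI67 or TOP2A, genes of dividing cells, made up 70.5 and 66.5% of untreated and 25.8 and 46.1% of treated SCC1 cells, 65.2 and 72.5% against 51.2 and 56.7% in SCC6, and 69.3 and 48.2% against 47.6 and 29.1% in SCC25. Their share was thus lower in both treated samples of each line, though in SCC25 by little between 47.6 and 48.2%. The summed levels overlapped in SCC6, for MKI67 (112 and 134 CPM untreated, 122 and 102 treated) and TOP2A (116 and 164 against 130.1 and 132). MKI67 overlapped in SCC25 too. The part of this share in the change of the genes was not tested. In treated SCC25 cells with MKI67 or TOP2A had 5.13 and 6.32 TAGLN UMIs against 9.80 and 13.7 in the other cells. Treated SCC1 (15.9 and 10.3 against 19.4 and 10.2) and treated SCC6 (12.9 and 19.1 against 15.2 and 22.2) were closer.

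Other genes of the contractile machinery were read from 5 lists, which were likewise put together with earlier results of these data known and hold 77 genes, 73 of them tested. Across the 3 lines, 13 of 73 rose and 0 fell, where 2.53% of all genes tested rose and 1.13% fell. The fall count was also 0 under the replicate block and by DESeq2, where 994 of 17897 and 748 of 17550 genes fell. An unadjusted edgeR p under 0.05 in either direction was found for 31 of the 73 and for 3757 of all 17897 genes. With the replicate block 21 of 73 rose (1079 of all 17897 genes). Fewer of the 73, and fewer of all genes, rose when any 1 of 5 samples was left out. These were SCC6 PBS replicate 1, SCC6 PBS replicate 2, SCC1 PBS replicate 2, SCC1 cetuximab replicate 1 and SCC6 cetuximab replicate 2. Their median log2 fold change was 0.26, against 1.75 for the 10 genes and 0.01 for all genes. Among stress fibre proteins 7 of 25 rose, with CSRP1, a LIM protein of actin bundles, at 0.95 ± 0.14 (edgeR FDR 0.00903) and PDLIM7 at 0.78 ± 0.13 (FDR 0.0122). Of the other myosin chains 3 of 12 rose, with the non-muscle heavy chain MYH9 at 0.85 ± 0.14 and the essential light chain MYL6 at 0.72 ± 0.13 (edgeR FDR 0.0126 and 0.0166). The third was MYL12A (log2 0.66, FDR 0.0409).

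Few genes of the other lists passed. Of 10 paralogues of the genes only ACTC1, the cardiac actin, rose across lines by edgeR (log2 3.33, FDR 0.0200), at a mean of 0.366 CPM in untreated SCC1, 0.0147 in SCC6 and 0.0134 in SCC25 against 1.86, 1.35 and 0.0562 CPM after cetuximab, while ACTB, ACTG1, TPM3, TPM4 and TAGLN2 did not pass. Of 17 contraction signalling genes 1 rose, PPP1R12B (log2 0.95, edgeR FDR 0.0426), a subunit of the phosphatase that opposes MYLK. Of SRF and its cofactors 1 of 9 rose, MKL1 (log2 0.56, edgeR FDR 0.0171). MKL1 encodes a myocardin-related coactivator of SRF. Its level in SCC6 was 14.1 and 13.1 CPM untreated and 28.4 and 25.1 CPM treated. These genes were singled out because they were the only ones of their list to pass. SRF itself had 8.42 to 16.7 CPM in the 12 samples.

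In SCC6 alone 7 of 73 rose and 0 fell, where 2.51% and 1.30% of all genes did. With the block 19 rose and 1 fell (1779 and 1810 of all 17897 genes), and by DESeq2 13 rose and 0 fell (901 and 770 of 16856 genes). At an unadjusted edgeR p under 0.05 in either direction were 23 of 73 and 3561 of all 17897 genes. PALLD, which anchors stress fibres, rose by 1.67 ± 0.21 (edgeR FDR 0.00678), MYL6 by 1.10 ± 0.18 (FDR 0.0144), the actin cross-linker FLNA by 1.10 ± 0.22 (FDR 0.0246) and MYH9 by 1.14 ± 0.24 (FDR 0.0289). These 4 calls were not kept without SCC6 PBS replicate 1, a fit with a lone PBS sample in SCC6 that called fewer of all genes. MYOCD, the myocardin coactivator of smooth muscle and heart, rose as well (edgeR FDR 0.0122), from 0.00996 and 0.0681 CPM to 2.45 and 2.06 CPM, and it is named after its values were seen. It was listed at 0 in the 4 SCC1 samples and at 0.0802 to 0.477 CPM in SCC25.

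In SCC1 and in SCC25 edgeR called 0 of the 73, with 12 and 18 at an unadjusted p under 0.05 (1570 and 1041 of all 17897 genes). DESeq2 called 3 and 2, where it called 274 of 15468 and 101 of 15815 genes in all. The replicate block called 9 and 5, where it called 797 and 175 of all 17897 genes. The first by p were CSRP1 in SCC1 (1.06 ± 0.27, edgeR FDR 0.239, with the block 0.0382), TES in SCC1 (0.71 ± 0.21, FDR 0.322, with the block 0.0301), MYL6 in SCC25 (0.73 ± 0.18, edgeR FDR 0.467, with the block 0.0307) and MYH9 in SCC25 (0.88 ± 0.23, FDR 0.521, with the block 0.0536). A different effect between lines was called by edgeR for 0 of 73, with 11 at an unadjusted p under 0.05 (1318 of all 17897 genes). It was called for 0 under the block (230 of 17897 genes) and for 2 by DESeq2 (276 of 16509 genes). The lowest FDR at 20 CPM or more were 0.398 for PALLD and 0.650 for MYL6.

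Between untreated lines, 12 of 73 were higher and 15 lower in SCC6 than in SCC1, where 21.5% and 18.6% of all genes were. SCC25 against SCC1 gave 17 higher and 8 lower (23.4% and 17.3% of all genes), and with the replicate block 26 and 14 (30.7% and 28.0%). SCC25 against SCC6 gave 23 higher and 7 lower (22.2% and 18.7%). SCC6 had less ROCK1, a kinase that activates myosin (-1.31 ± 0.19, edgeR FDR 0.000442), and less CNN3, a calponin of non-muscle cells (-1.28 ± 0.27, FDR 0.00354), than SCC1. It had more FHL2 (1.96 ± 0.35) and ACTN4 (1.08 ± 0.22), with edgeR FDR 0.00152 and 0.00292. SCC25 exceeded SCC1 in PDLIM1 (2.15 ± 0.26, edgeR FDR 0.000149), CSRP2 (1.68 ± 0.33), PPP1R14B (1.46 ± 0.30) and FHL2 (1.57 ± 0.35). It exceeded SCC6 in CNN3 (2.23 ± 0.27, edgeR FDR 0.000168), PALLD (1.29 ± 0.21) and the caveolin CAV1 (1.11 ± 0.19).

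The genes most like the 10 in their pattern were looked for among 5323 other genes with a mean of 20 CPM or more. The measure was the Pearson correlation over the 12 samples of log2(CPM + 1), centred within each line, with the mean of the 10. The first 8 were CMTM3 (r = 0.981), PALLD (0.981), GALNT2 (0.975), GAS6 (0.973), AJUBA (0.973), MYL6 (0.972), CYBC1 (0.966) and PPIC (0.965). CMTM3 for example had 16.9 and 24.0 CPM in untreated and 50.7 and 55.9 CPM in treated SCC6. GAS6, which encodes a ligand of the TAM receptor tyrosine kinases, had 27.6 and 35.4 CPM against 85.5 and 95.5 CPM there. The 12 samples share lines and treatment, and this likeness is a description.

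Markers of other cell types are given by list, whether or not they moved with the genes. The smooth muscle markers summed to 18.6 to 23.5 CPM in untreated and 12.5 to 16.7 CPM in treated SCC1, 11.1 to 25.0 and 18.9 to 33.0 CPM in SCC6, and 16.1 to 19.2 and 20.2 to 32.1 CPM in SCC25. The 10 fibroblast markers summed to 16.8 to 18.9 CPM in untreated and 35.3 to 36.8 CPM in treated SCC1, and to 23.7 to 41.7 and 50 to 85.4 CPM in SCC25. In SCC6 they went from 1.02 to 3.11 CPM untreated to 23.4 to 28.0 CPM treated, most of it COL1A1 (23.1 and 18.9 CPM), with PDGFRA and POSTN under 1 CPM in all 12 samples. The 10 cardiac markers summed to 7.17 to 24.2 CPM in untreated and 99.2 to 163 CPM in treated SCC1, most of it NPPB, and to at most 33.1 CPM in the other lines, with MYH6, MYH7, MYL4, NPPA and RYR2 under 1 CPM in all 12 samples. Whether cells of such types were present was not tested.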

How the data were processed

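Single-cell libraries of 12 samples (3 lines, PBS or cetuximab, 2 replicates each) were analysed from the deposited count matrices, in which the authors gave UMI counts per gene and cell, not normalised. Per the labels, reads were processed with Cell Ranger against GRCh38; versions, the annotation and the counting of reads shared by near-identical genes are not given in the sources used here. The study's methods name Monocle for tests over cells; cells are not replicates, so counts were summed per sample. No column of sample values was left unused (0).

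All deposited cells were used, and doublets were not removed; leaving out the 5% of cells with most UMIs was 1 alternative. The 6 group means were fitted in edgeR 4.0.16 (R 4.3.3; TMM, filterByExpr, glmQLFit, glmQLFTest, 6 residual degrees of freedom), with Benjamini-Hochberg adjustment over all 17897 genes tested (FDR) and a threshold of 0.05. The effect across lines had line and treatment as terms. Alternatives were a replicate block, DESeq2 1.42.0, its size factors in edgeR, no filter on low counts, cells over 20% mitochondrial left out, fits to 1 line, and each sample left out. Scripts were tested on simulated data. Same-numbered samples deviated together from their group means (r = 0.669 in SCC1, 0.625 in SCC6 and 0.721 in SCC25, over 7583 genes at 10 CPM or more), so the numbers pair the samples within a line. The main fit leaves this pairing out, and only the replicate block takes it in. For TAGLN under cetuximab in SCC25 the SE was 0.35 without and 0.20 with the block (edgeR FDR 0.109 and 0.00579).

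The 10 genes, the related lists and the tests were chosen with earlier results of these data known. Named genes were all 10, the 4 related genes of smallest p per comparison among those called at a mean of 20 CPM or more (2 where none was called), and the 8 genes most like the 10; others are said to be named after their values were seen. A gene that this rule names is not reported here. The related lists hold 6 of the smooth muscle and 2 of the cardiac markers. Cells were thinned at random to 15000 UMIs, and shares have exact 95% intervals for counting error only. The planned exact permutation test of co-occurrence is not given, because that ratio is bounded by the shares. Promoter windows were from RefSeq (GRCh38.p14), searched over the 250 bases before each start on both strands. Python 3.11.15 with numpy 2.4.6, scipy 1.17.1, pandas 2.3.3 and matplotlib 3.10.9 was used.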

Additional observations from a re-analysis of the deposited data

Results flagged for a closer look

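With the replicate block, the cetuximab effect differed between lines for 5 of the 10 genes (edgeR FDR over all genes): TPM1 (0.0126), ACTG2 (0.0126), CALD1 (0.0284), ACTA2 (0.0356) and MYL7 (0.0423). The block called 230 of all 17897 genes. Without the block none of the 10 passed, with 5 at an unadjusted edgeR p under 0.05 (1318 of all 17897 genes), and DESeq2 called 4 (276 of 16509 genes). For ACTA2, both treated SCC1 samples lay below both PBS samples while both treated samples of SCC6 and of SCC25 lay above theirs, and its FDR for a difference between lines was 0.368 in edgeR without the block. The genes had been picked on their cetuximab change, so these values are a description.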

How the results depend on the processing

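Of the 10 genes, the count called under cetuximab was 0 in SCC1, and 7 with the replicate block, 5 by DESeq2 and 4 with no filter on low counts. In SCC25 it was 0, against 8 with the replicate block, 8 by DESeq2 and 8 with no filter, and for a difference between lines 0, against 5, 4 and 4. With no filter, 197 of all 25899 genes were called higher in SCC1 and 114 in SCC25, and 248 were called for a difference between lines. SCC25 against SCC1 without treatment gave 4 calls and 7 with the block, and the related genes across lines 13 and 21. Of the 73 related genes the block called 9 in SCC1, 5 in SCC25 and 20 in SCC6, against 0, 0 and 7 without it, and 40 against 25 for untreated SCC25 against SCC1. It moved none of the other counts of the 10 genes or of the related genes by over 1.5 times. Leaving out 1 replicate at a time gave 0 to 0 calls in SCC1, in SCC25 and for the difference between lines, 2 to 9 in SCC6, 6 to 8 across lines, 4 to 7 for SCC6 against SCC1, 3 to 5 for SCC25 against SCC1, 3 to 7 for SCC25 against SCC6, and 4 to 13 related genes. The co-occurrence difference ranged from -0.0269 to -0.0183 over left-out replicates. Its value of -0.0215 is the same with the replicate block by arithmetic, so that the block tells nothing about it. Of the untreated log2 differences between lines, 711 alternative values kept direction and call, 21 lost and 11 gained the call, and 13 turned direction, none of these called in the reported fit. The last were MYL7 for SCC25 against SCC6 (-1.31 to 0.62 over left-out replicates), TPM2 for SCC25 against SCC1 (0.01 with the block, 0.04 by DESeq2 and with its size factors, -0.21 to 0.23 over left-out replicates, 0.08 without SCC25 PBS replicate 1), and CALD1 for SCC25 against SCC1 (-0.85 to 0.01 over left-out replicates). CNN1 turned for SCC6 against SCC1 (0.15 with the block, 0.01 with no filter, -1.0 to 2.41 over left-out replicates, 0.46 without SCC6 PBS replicate 1), SCC25 against SCC1 (-1.49 to 1.92 over left-out replicates) and SCC25 against SCC6 (-0.97 to 0.28 over left-out replicates). TPM2 under cetuximab in SCC1 ran from -0.25 to 0.19 over left-out replicates (0.04 without SCC1 cetuximab replicate 1). The cause was not tested. A fit without 1 replicate leaves a lone sample, which is assumed to vary like the other groups. The calls over all genes also changed in such fits, and were fewer in SCC6 without its PBS replicate 1. CNN1, with 1 to 9 UMIs per untreated sample, is limited by depth.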
